A study of Mus musculus with 16 samples.

Results

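The genes described here are the 8 enzymes that make serine and pass its carbon to folate: Phgdh, Psat1, Psph, Shmt1, Shmt2, Mthfd1, Mthfd1l and Mthfd2. They were chosen by name, and all 8 were found among the 32989 gene identifiers measured and among the 19049 with enough counts to be tested. RNA came from hair follicle stem cell (HFSC) organoids, 3-dimensional skin cell cultures in which HFSCs and their progeny are kept together for 2 weeks. The organoids came from 4 C57BL/6J mice and either stayed untreated or received the acetylated polyamine N1-acetylspermidine (N1-AcSpd) during 72 h. Sorting then separated progenitors (α6+/CD34-) from HFSCs (α6+/CD34+), where α6 is the integrin of basal keratinocytes and CD34 a surface marker of bulge stem cells. Each mouse gave 1 library to each of the 4 groups (untreated CD34-, untreated CD34+, N1-AcSpd CD34- and N1-AcSpd CD34+), so that the same 4 animals stand behind all 16 libraries. The untreated libraries carry the label WT, and no other allele or agent is named. The study's methods give epidermal cells from juvenile to young adult animals of both sexes, at rest phase of the hair cycle. The labels do not assign an age or sex to each mouse or state the dose, which was not used here. P-values measure the spread between the cultures of 4 mice, taken as 1 spread per gene for all 4 groups and without pairing by mouse.

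Serine is made from the glycolytic intermediate 3-phosphoglycerate. Phgdh oxidises it, Psat1 adds the amino group and Psph removes the phosphate. Serine hydroxymethyltransferases then move a carbon from serine to tetrahydrofolate and release glycine, Shmt1 mainly in the cytosol and Shmt2 in mitochondria. Mitochondrial Mthfd2 oxidises the folate-bound carbon, Mthfd1l releases it as formate, and cytosolic Mthfd1 loads formate back onto folate for purine and thymidylate synthesis. The pathway feeds nucleotide synthesis in dividing cells, and several of its genes (Phgdh, Psat1, Psph, Shmt2 and Mthfd2) are known targets of ATF4, the transcription factor of the amino acid response.

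Positions are those of GENCODE M21 on GRCm38, the mouse assembly mm10 of the submitters' processing notes. Phgdh (ENSMUSG00000053398) lies on chromosome 3 from 98313170 to 98339990, Psat1 (ENSMUSG00000024640) on chromosome 19 from 15904678 to 15947337 and Psph (ENSMUSG00000029446) on chromosome 5 from 129765558 to 129787449, all on the minus strand. Shmt1 (ENSMUSG00000020534) lies on chromosome 11 from 60788104 to 60811718, and Shmt2 (ENSMUSG00000025403) on chromosome 10 from 127517123 to 127522444, both on the minus strand. Mthfd1 (ENSMUSG00000021048) lies on chromosome 12 from 76255298 to 76319803 and Mthfd1l (ENSMUSG00000040675) on chromosome 10 from 3973118 to 4167081, both on the plus strand, while Mthfd2 (ENSMUSG00000005667) lies on chromosome 6 from 83305691 to 83325908 on the minus strand. Exons of 3 members are shared with a tested gene on the other strand: 32 bases at the 3′ end of Shmt2 with Ndufa4l2, 184 bases at the 3′ end of Shmt1 with Smcr8, and 452 bases of Psph, far from its 3′ end, with Cct6a. The sources used here do not say whether strand was used in counting, so reads from these shared bases cannot be assigned to 1 of the pair with certainty.

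Since Psat1 and Mthfd2 moved together between libraries and Shmt1 and Shmt2 did not move with each other, the bases just before the RefSeq start of these 4 genes are shown, read 5′ to 3′ on the gene's own strand from RefSeq sequence on GRCm38.p6. Capitals mark the motif CCAAT or its reverse complement ATTGG. The windows are chr19:15925060-15925159 for Psat1, chr6:83317607-83317704 for Mthfd2, chr11:60811266-60811365 for Shmt1 and chr10:127522445-127522544 for Shmt2, all on the minus strand. Those of Psat1, Mthfd2 and Shmt1 lie inside the GENCODE spans given above, since their RefSeq starts differ from the GENCODE 5′ ends. The Shmt2 window lies just outside its span.
Psat1: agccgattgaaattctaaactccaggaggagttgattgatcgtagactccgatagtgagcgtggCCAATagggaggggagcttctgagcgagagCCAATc
Mthfd2: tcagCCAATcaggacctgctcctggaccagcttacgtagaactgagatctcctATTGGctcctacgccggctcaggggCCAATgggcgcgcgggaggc
Shmt1: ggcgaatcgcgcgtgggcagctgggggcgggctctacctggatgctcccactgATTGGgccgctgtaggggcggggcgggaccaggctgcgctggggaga
Shmt2: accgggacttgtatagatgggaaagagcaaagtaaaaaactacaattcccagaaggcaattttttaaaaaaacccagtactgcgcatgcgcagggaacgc
The Mthfd2 stretch held 3 matches, the Psat1 stretch 2, the Shmt1 stretch 1 and the Shmt2 stretch 0. Yet Shmt2 also moved with Psat1 and with Mthfd2 (Pearson r of 0.85 with each once group means were removed). Phgdh, whose stretch is not shown and held 0 matches, had r of 0.82 with Psat1 and 0.83 with Mthfd2. Whether these matches bear on how the genes moved was not tested. In the wider windows of 250 bases before to 50 bases after the start, CCAAT was sought on either strand. It was found for 6 of 8 members (all but Shmt2 and Mthfd1l), against 37.4% of 32851 windows of all genes. A member counted if any of its windows held a match, while the share over all genes is per window. The same 6 members held a match in the window of their most upstream start. Mthfd1 was among them, with r of -0.56 with Psat1 and -0.61 with Mthfd2. Neither TGATGNAA, a form of the ATF4 response element, nor the E-box CACGTG was found in a window of any of the 8, against 3.97% and 7.15% of all windows, both strands being searched. With no match to TGATGNAA or CACGTG, no overlap between motifs arises among the members, and a match is a description of letters only.

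Library totals ran from 15480075 to 29074855 unique molecular identifiers (UMIs, each marking 1 RNA molecule). Levels are given as CPM (UMI counts scaled to a common library total) on TMM-scaled totals and are compared for 1 gene at a time. Cd34 stayed at 2.88 to 3.65 CPM in CD34- cells, against 43.4 to 64.1 CPM in those sorted as CD34+, and the basal keratinocyte marker Krt14 had group means of 4872 to 5418 CPM. Itga6, the gene of α6, averaged 62.8 CPM in untreated CD34- and 49.7 CPM in untreated CD34+ cells, and 54.1 and 48.0 CPM with N1-AcSpd. On the list of 5 basal markers that holds both genes, 1 was higher and 2 lower in CD34+ cells in either condition by edgeR's test. Of the markers listed for other states, 5 of 7 HFSC markers were higher and 6 of 6 markers of differentiated keratinocytes lower in CD34+ cells in either condition by edgeR's test. Summed fibroblast markers stayed between 0.171 and 1.52 CPM and immune markers between 0.817 and 3.38 CPM, while melanocyte markers summed to at most 36.1 CPM. The endothelial marker Pecam1 was high throughout (group means of 1756 to 1987 CPM), while Kdr stayed between 0 and 0.36 CPM. In these sorted bulk samples, fewer cells that hold a transcript and less of it per cell cannot be told apart.

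The first comparison asked how the serine and one-carbon enzymes differ between HFSCs and progenitors in untreated cells. The cytosolic folate enzymes Mthfd1 and Shmt1 were higher in CD34+ cells, Mthfd1 by 32.1% and Shmt1 by 12.9%. The 3 serine synthesis enzymes, Mthfd1l and Mthfd2 had lower means in CD34+ cells, but none of them passed the test. Thus 2 of 8 members were called higher and 0 lower by edgeR (Benjamini-Hochberg adjusted p under 0.05 over 19049 genes), where 32.1% of all genes were called, 16.1% higher and 16.1% lower. The median log2 fold change of the 8 members was -0.13, against 0.022 for all genes tested. A share of 2 in 8 is near that background.

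**Figure D1:**
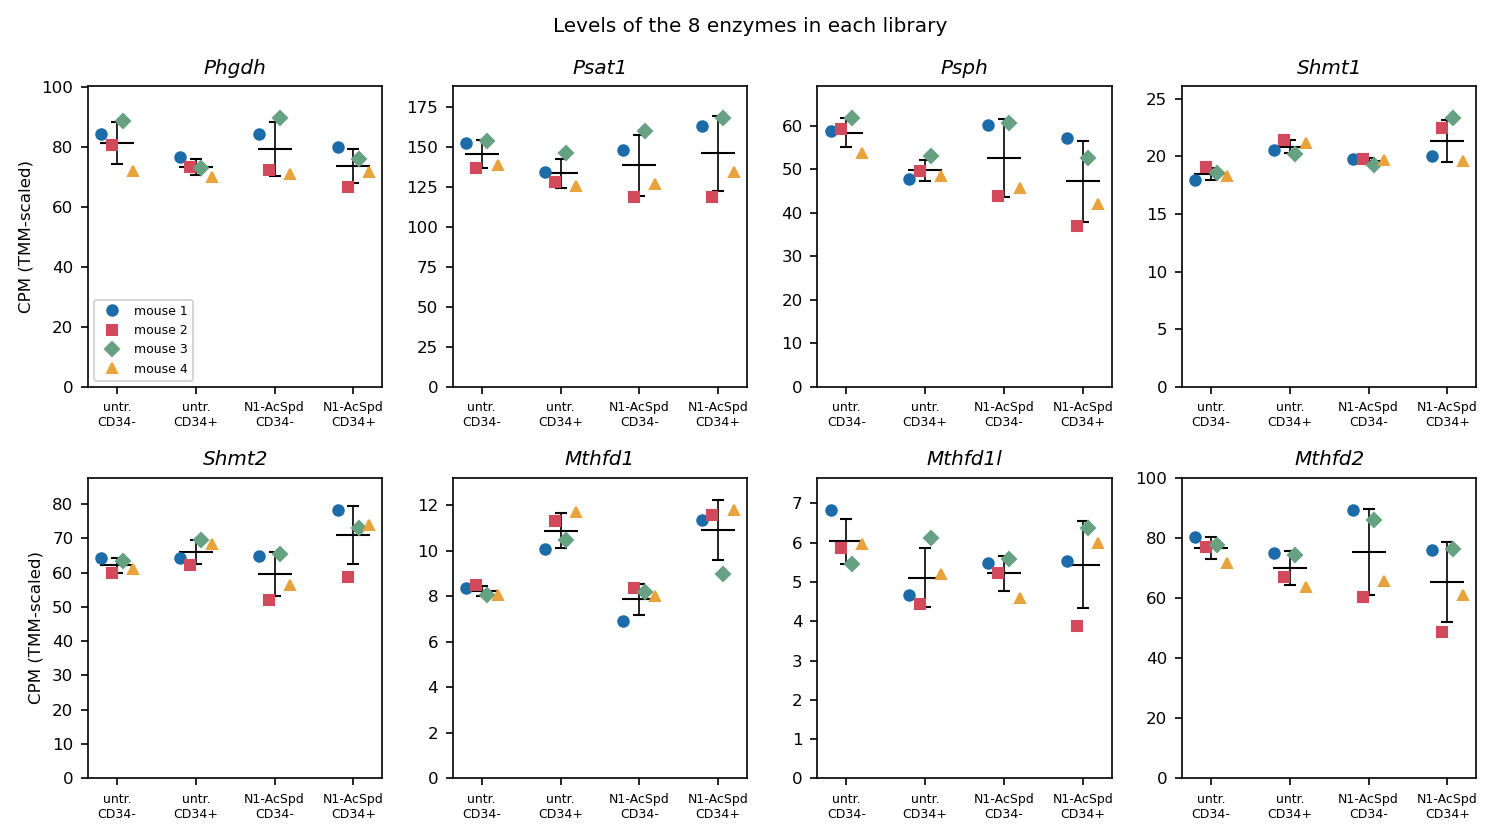
CPM on TMM-scaled totals of each of the 8 enzymes in the 16 libraries, 1 symbol for each mouse, with the group mean and SD in black (n = 4 in each group, axes from 0). Mthfd1 was above its CD34- libraries in every CD34+ library, and under N1-AcSpd the libraries of mice 1 and 3 sat above those of mice 2 and 4 for Phgdh, Psat1, Psph and Mthfd2.

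Mthfd1 measured 8.35, 8.50, 8.06 and 8.08 CPM in the untreated CD34- libraries of mice 1 to 4 and 10.1, 11.3, 10.5 and 11.7 CPM in their CD34+ libraries. The groups did not overlap, and the rise was seen in 4 of 4 mice (log2 fold change 0.40, SE 0.085, adjusted p 0.00254). The call held in all 20 fits that left out a library or a mouse. Shmt1 measured 17.9, 19.1, 18.6 and 18.3 CPM in CD34- and 20.6, 21.5, 20.2 and 21.2 CPM in CD34+ libraries, again without overlap and higher in 4 of 4 mice. Its difference was small (0.18, SE 0.050, adjusted p 0.0156), and DESeq2 gave an adjusted p of 0.0555. The Shmt1 call was lost without the untreated CD34+ library of mouse 4 (adjusted p 0.0511) and without all libraries of mouse 1 (0.0745), mouse 2 (0.0610) or mouse 4 (0.0669). Smcr8, which shares 184 bases at the 3′ end of Shmt1 on the other strand, averaged 103 UMIs a library against 422 for Shmt1. Its part in the Shmt1 values was not tested.

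Psph, the last enzyme of serine synthesis, was the third member whose untreated groups did not overlap, which was so for 32.2% of all genes. It measured 58.8, 59.4, 61.7 and 53.7 CPM in CD34- libraries and 47.9, 49.5, 53.1 and 48.4 CPM in CD34+ libraries. Every mouse had the lower value in CD34+ cells, yet the fit over all 16 libraries did not call it (-0.23, 95% interval -0.52 to 0.053, adjusted p 0.212). With only these 8 libraries in the fit the adjusted p was 0.0178. Cct6a, which shares exon bases with Psph at least 21440 bases from the Psph 3′ end, had a log2 fold change of -0.59 (adjusted p 5.76e-06). Its part in the Psph values was not tested.

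The remaining members did not pass. Phgdh, which opens serine synthesis, measured 84.3, 80.6, 88.6 and 71.9 CPM in CD34- and 76.7, 73.4, 73.04 and 70.1 CPM in CD34+ libraries, and Psat1 153, 137, 154 and 139 CPM and 135, 128, 146 and 126 CPM. Mthfd1l measured 6.84, 5.88, 5.46 and 5.96 CPM and 4.67, 4.44, 6.13 and 5.19 CPM, and at 68 to 159 UMIs a library it had the fewest counts of the 8. In all 3 the groups overlapped. Phgdh had a log2 fold change of -0.15 (95% interval -0.33 to 0.027, adjusted p 0.194) and Psat1 one of -0.12 (-0.37 to 0.12, adjusted p 0.467), both with lower values in 4 of 4 mice. Mthfd2 had -0.13 (-0.45 to 0.18, adjusted p 0.568) and was also lower in 4 of 4 mice, while Mthfd1l, at -0.24 (-0.55 to 0.065, adjusted p 0.230), was lower in 3 of 4. Shmt2, the mitochondrial partner of Shmt1, measured 64.3, 59.7, 63.3 and 61.0 CPM in CD34- and 64.3, 62.1, 69.5 and 68.2 CPM in CD34+ libraries, a difference of 0.089 (-0.099 to 0.28, adjusted p 0.510). The intervals of Psph, Mthfd1l and Mthfd2 include differences as large as that of Mthfd1.

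In N1-AcSpd-treated cells 2 of 8 members were again called higher and 0 lower. The means compared here come from other libraries of the same mice, but SE and p come from the same fit of all 16 libraries. Across all genes 33.3% were called, 16.5% higher and 16.8% lower. Mthfd1 was higher in CD34+ cells by 38.9% and Shmt2 by 19.1%, while Shmt1 did not pass (0.12, SE 0.050, adjusted p 0.0785). Dropping mouse 1 or mouse 4 from the treated CD34+ libraries gave Shmt1 an adjusted p of 0.0240 or 0.0265. The median over the 8 members was 0.068, against -0.0068 for all genes.

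Mthfd1 measured 6.89, 8.38, 8.18 and 8.0 CPM in the N1-AcSpd CD34- libraries and 11.4, 11.6, 8.96 and 11.8 CPM in the CD34+ libraries. It was the only member whose groups did not overlap here, as held for 34.4% of all genes (0.47, SE 0.085, adjusted p 0.000647). All 20 fits without a library or mouse again called it. Shmt2 measured 64.7, 52.1, 65.3 and 56.2 CPM in CD34- and 78.3, 58.7, 72.9 and 73.9 CPM in CD34+ libraries. The groups overlapped through mouse 2, although 4 of 4 mice had the higher value in CD34+ cells (0.25, SE 0.087, adjusted p 0.0384). This call was lost in 8 of 20 such fits. Among treated CD34- libraries, dropping mouse 2 gave an adjusted p of 0.119 and dropping mouse 4 one of 0.0994, and among treated CD34+ libraries dropping mouse 1, 3 or 4 gave 0.0935, 0.0811 and 0.0900. With a whole animal removed, the adjusted p was 0.117 for mouse 1, 0.0839 for mouse 3 and 0.234 for mouse 4. The call was also lost with no low-count filter (0.0722) and with only the compared groups in the fit (0.112). Ndufa4l2, which shares the last 32 bases of Shmt2 on the other strand, rose in the same comparison by 0.97 on the log2 scale (adjusted p 4.54e-05), and its part in the Shmt2 values was not tested.

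The other members were not called. Phgdh had -0.11 (95% interval -0.29 to 0.069), a sign that turned to 0.0072 when library totals were used without the TMM factor. Psph had -0.15 (-0.44 to 0.13) and Mthfd2 -0.20 (-0.52 to 0.11), both lower in 4 of 4 mice. Psat1 had 0.077 (-0.17 to 0.32) and Mthfd1l 0.059 (-0.24 to 0.36), each higher in 3 of 4 mice. Mthfd1l measured 5.49, 5.22, 5.59 and 4.59 CPM in CD34- and 5.53, 3.87, 6.38 and 5.99 CPM in CD34+ libraries, so its groups overlapped.

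**Figure D2:**
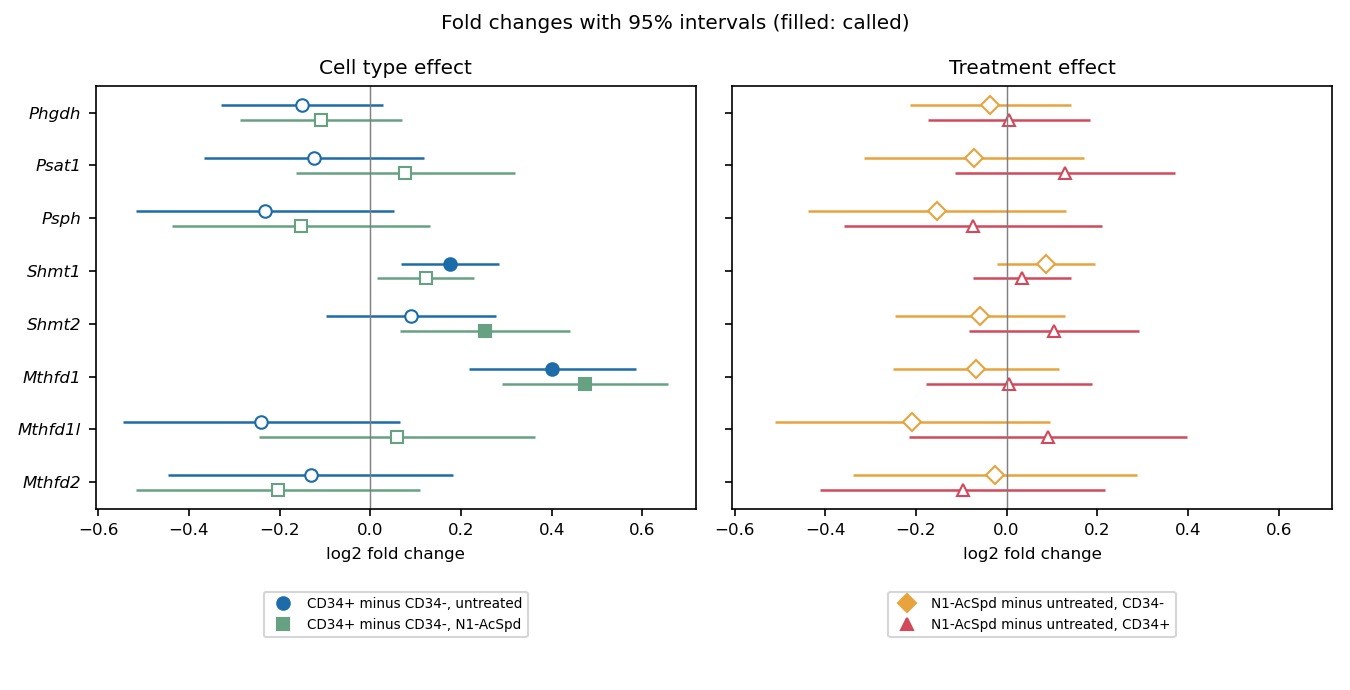
log2 fold changes of the 8 enzymes with 95% intervals from the edgeR fit of 16 libraries, for CD34+ minus CD34- cells (left) and for N1-AcSpd minus untreated cells (right). Filled symbols passed an adjusted p of 0.05: Mthfd1 and Shmt1 in untreated cells, Mthfd1 and Shmt2 in N1-AcSpd cells, and 0 members in the treatment comparisons.

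Whether the cell type effect itself changed with N1-AcSpd was tested as the interaction. None of the 8 members was called, 0 of 8 had an unadjusted p under 0.05, and across all genes edgeR called 0% while 4.19% lay under 0.05 before adjustment. DESeq2 also called 0 of 8 members, although it called 72 genes. The difference of the Shmt2 effects was 0.16 (95% interval -0.10 to 0.43), that of Shmt1 -0.054 (-0.21 to 0.099) and that of Mthfd1 0.073 (-0.19 to 0.33), so Shmt1 and Shmt2 passing in 1 condition each is not shown to be a difference between conditions.

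The same direction was examined in the other genes of the pathway, taken from lists by function. Of 8 tested folate cycle enzymes outside the members, 4 were higher and 0 lower in untreated CD34+ cells, and 4 higher and 1 lower in N1-AcSpd cells. Over all genes 16.1% were called higher and 16.1% lower in untreated cells, and 16.5% and 16.8% in N1-AcSpd cells. Among them were Tyms, which makes thymidylate (0.31 and 0.47 in untreated and N1-AcSpd cells), Mthfs (0.39 and 0.35) and Aldh1l1, which oxidises formyl folate to carbon dioxide (1.22 and 1.04). Aldh1l1, with a mean level of 2.79 CPM in untreated CD34- and 6.51 CPM in CD34+ cells, was the largest of these differences. Mtfmt, which formylates the mitochondrial initiator tRNA, was the lower one (-0.32, adjusted p 0.0581 in untreated and -0.35, adjusted p 0.0337 in N1-AcSpd cells), and leaving out a library or mouse ended its N1-AcSpd call in 9 of 20 fits and gave an untreated call in 2.

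Genes of DNA replication were read beside them. Of 25 on this S phase list, 19 were higher and 1 lower in CD34+ cells in either condition, with a median of 0.28 in untreated and 0.36 in N1-AcSpd cells. Mcm6 and Mcm7, subunits of the replicative helicase, rose by 0.45 and 0.38 in untreated cells (adjusted p 4.30e-06 and 2.73e-05), and Pola1, the catalytic subunit of DNA polymerase alpha, fell by 0.87 (adjusted p 1.99e-06). The untreated count of 20 called genes ran from 13 (without mouse 2) to 20 when a library or mouse was left out. Whether the share of cells in S phase had a part in the Mthfd1 and Shmt1 differences was not tested.

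Lists next to the pathway did not share 1 direction. Their counts stand beside 32.1% of all genes called in untreated cells, 16.1% higher and 16.1% lower. Those of the folate transport, purine and glycine cleavage lists are near that share. Among folate transport and retention genes, 0 of 6 were higher and 2 lower in untreated CD34+ cells, namely Ggh, which trims folate tails (-0.34, adjusted p 0.00336), and the folate carrier Slc19a1 (-0.19, adjusted p 0.0448). Among 10 tested serine transport and use genes, 2 were higher (Sfxn2 and Sfxn3) and 3 lower (Sfxn1, Srr and Sptlc2). Sfxn3, a mitochondrial serine carrier, rose by 0.60 (adjusted p 0.00108), Sfxn1, of the same family, fell by 0.28 (adjusted p 0.000491), and Sptlc2, which joins serine to fatty acid in sphingolipid synthesis, fell by 0.77 (adjusted p 2.24e-06). Of 6 purine synthesis genes Paics rose by 0.50 (adjusted p 6.36e-06) and Adsl fell by 0.50 (adjusted p 2.43e-05). In the methionine cycle list 3 of 8 were higher, Mat2b (0.43, adjusted p 0.00195), Cbs (0.83, adjusted p 0.00222) and Mtr (0.41, adjusted p 0.0284), and Mtrr was lower (-0.29, adjusted p 0.0281). Of the glycine cleavage genes 1 of 3 was lower (Gldc, -0.20, adjusted p 0.0428), a count that ran from 0 to 2 over the 20 fits without a library or mouse, and that of the folate transport list from 1 to 2. Called genes ran from 3 to 5 on the serine list, 2 to 3 on the purine list and 2 to 5 on the methionine list over the same fits.

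**Figure D3:**
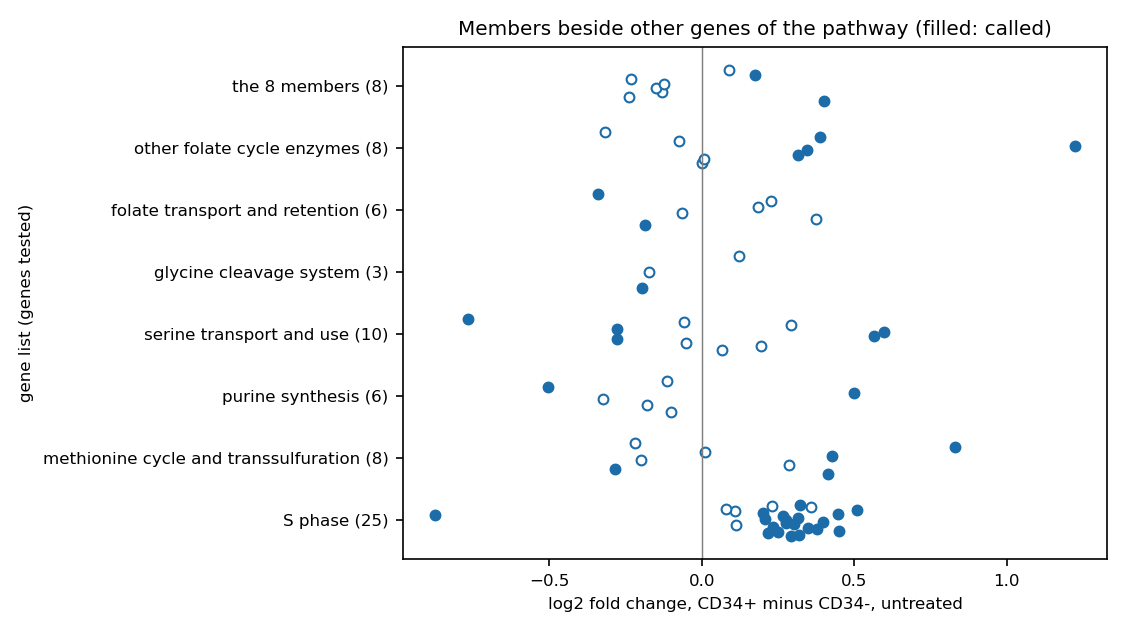
log2 fold changes between CD34+ and CD34- untreated cells for the 8 members and for the tested genes of 7 lists, 1 point for each gene, filled where the adjusted p was under 0.05. Of the 25 S phase genes 19 are filled to the right of 0 and Pola1 lies far to the left, while 2 of 8 members are filled.

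The second comparison asked whether 72 h of N1-AcSpd changed these enzymes. In CD34- progenitors edgeR called 0 of 8 members against 0.614% of all genes, and 0 of 8 had an unadjusted p under 0.05 against 13.6%. In CD34+ HFSCs it likewise called 0 of 8, against 0.325%, with 0 of 8 at an unadjusted p under 0.05 against 13.2%. Averaged over both cell types the count was 0 of 8 against 4.87% called and 20.8% at an unadjusted p under 0.05. DESeq2 and the fit with mouse as a replicate block also called 0 of 8 in each, although over all genes the block raised the calls from 117 to 351 in CD34- and from 62 to 152 in CD34+ cells. Median changes of the members were -0.064 in CD34- and 0.020 in CD34+ cells, against 0.00011 and -0.014 for all genes.

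The intervals bound what could have gone unseen. For the averaged effect the 95% interval of Shmt1 was -0.015 to 0.14, that of Phgdh -0.14 to 0.11 and that of Psph, the widest among the serine synthesis enzymes, -0.31 to 0.087. Shmt1 was the only member whose N1-AcSpd and untreated CD34- libraries did not overlap, at 19.8, 19.8, 19.2 and 19.7 CPM with N1-AcSpd against the untreated values above, as was so for 9.05% of all genes. Its change was 0.087 (95% interval -0.020 to 0.20, adjusted p 0.479). In CD34+ cells all 8 members overlapped, where 6.81% of genes did not. For Shmt1 in CD34+ cells and Mthfd1 averaged over both cell types, edgeR raised p to the bound set by counting error, so these intervals are narrower than the test. In the methionine list, Mat2a, which makes S-adenosylmethionine, rose on average over both cell types (0.33, adjusted p 0.0220), a call lost without all libraries of mouse 1, 2 or 3 (adjusted p 0.121, 0.147 and 0.118).

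What stood out under N1-AcSpd was the spread between mice. Mthfd2 measured 80.4, 77.1, 77.6 and 71.7 CPM in the untreated CD34- libraries of mice 1 to 4 and 89.4, 60.3, 85.9 and 65.8 CPM with N1-AcSpd. In CD34+ libraries it measured 74.9, 67.1, 74.4 and 63.6 CPM untreated and 75.9, 48.6, 76.4 and 60.9 CPM with N1-AcSpd. Mice 1 and 3 were thus above mice 2 and 4 in both treated fractions, with a wider gap than in untreated cells.

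Psph showed the same order under N1-AcSpd, at 60.1, 43.9, 60.5 and 45.6 CPM in CD34- and 57.1, 37.1, 52.6 and 42.1 CPM in CD34+ libraries. Psat1 did too, at 148, 119, 160.3 and 127 CPM and at 163, 119, 168 and 135 CPM. Phgdh measured 84.2, 72.4, 89.6 and 71.1 CPM and 80.1, 66.8, 75.9 and 71.5 CPM. For these 4 members the libraries of mice 1 and 3 lay above those of mice 2 and 4 in both treated groups, an order that 5.24% of the 12444 genes averaging 50 or more UMIs also had in both. Within single groups it was held by 6 members in N1-AcSpd CD34- (19% of genes), 4 in N1-AcSpd CD34+ (18.6%), 4 in untreated CD34- (20.2%) and 2 in untreated CD34+ cells (19%). The order was picked out after the values were seen and was not tested. The mouse labels of mice 1 and 3 begin with the letter X and those of mice 2 and 4 with Y, and what the letters stand for is not given.

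**Figure D4:**
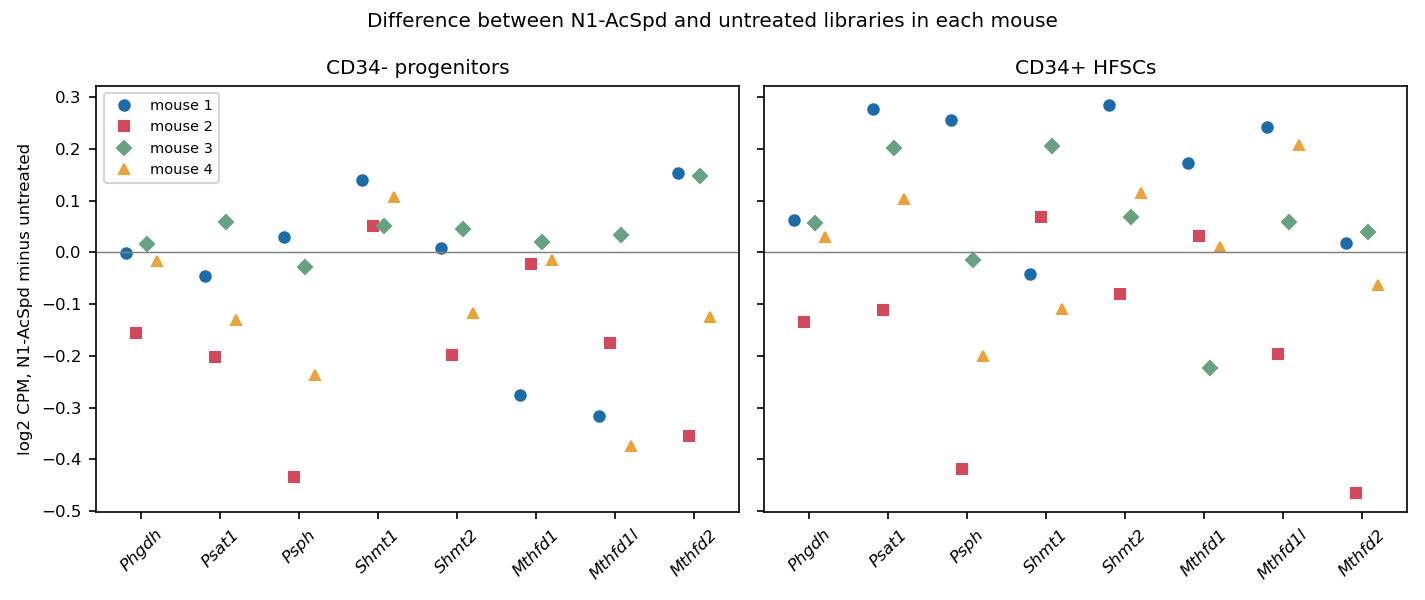
Difference in log2 CPM between the N1-AcSpd and the untreated library of each mouse for the 8 enzymes, in CD34- progenitors (left) and CD34+ HFSCs (right). Mouse 2 (squares) lies below 0 for 7 of 8 members on the left and 6 of 8 on the right, with Psph and Mthfd2 lowest, while mouse 3 (diamonds) lies near or above 0 for most.

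Seen within mice, the change with N1-AcSpd did not have 1 sign. In mouse 2, the difference in log2 CPM was -0.36 in CD34- and -0.46 in CD34+ cells for Mthfd2, and -0.43 and -0.42 for Psph. In mouse 1 the same differences for Psph were 0.030 and 0.26, and for Mthfd2 0.15 and 0.018. Over the 8 members the median difference in CD34- cells was 0.0038, -0.19, 0.039 and -0.12 in mice 1 to 4, and in CD34+ cells 0.21, -0.12, 0.058 and 0.020, while the median of all genes stayed between -0.0055 and 0.017. The number of members lower with N1-AcSpd was 4, 7, 1 and 7 in CD34- and 1, 6, 2 and 3 in CD34+ cells of mice 1 to 4.

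The SD of log2 CPM between mice was larger with N1-AcSpd than without for 6 of 8 members in CD34- cells (all but Shmt1 and Mthfd1l) and for 8 of 8 in CD34+ cells. The median ratio of the SDs was 2.59 and 2.43, against 0.913 and 1.06 over all genes averaging 50 or more UMIs, of which 44.1% and 53.8% had the larger SD with N1-AcSpd. The widest rise was that of Psph in CD34+ cells, from 0.068 to 0.29, followed by Mthfd2 in CD34- cells, from 0.069 to 0.28. Without mouse 2 the median ratio was 2.19 in CD34- and 1.48 in CD34+ cells. No test was made of these SDs, which rest on 4 mice each and on the same animals for every member. The main fit took 1 spread per gene for all groups, so its SEs and intervals do not show this difference.

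Total UMIs with N1-AcSpd, for mice 1 to 4, were 25202264, 29074855, 27334651 and 25461714 in CD34- and 26233887, 16715068, 15480075 and 16295268 in CD34+ cells, and the part of depth in the order of the enzymes was not tested. Summed S phase genes measured 747, 728, 808 and 786 CPM in the N1-AcSpd CD34- libraries of mice 1 to 4 and 860, 866, 875 and 873 CPM in the CD34+ libraries. Summed markers of differentiated keratinocytes measured 609, 431, 457 and 418 CPM and 124, 117, 139 and 105 CPM, so that mice 1 and 3 were above mice 2 and 4 in both fractions for this list as well. The part of these lists in that order was not tested either.

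The members fell into sets by how they moved between libraries once group means were removed. Phgdh, Psat1, Psph and Mthfd2 had Pearson r of 0.82 to 0.94 with one another over the 16 libraries, Psat1 with Mthfd2 being highest (0.94). Shmt2 joined them at 0.70 to 0.85 and Mthfd1l more loosely at 0.36 to 0.65. Mthfd1 and Shmt1 had r of -0.61 to -0.13 with all of these and -0.41 with each other. Mthfd1 and Shmt1 were also the members called higher in untreated CD34+ cells. The call and the low r are not independent, since spread between mice in all 4 groups enters the SE of the test. Psph, at -0.23 with an SE of 0.13, was not called in untreated cells, while Shmt1, at 0.18 with an SE of 0.050, was. These are descriptions over libraries that share mice and group means, without a test.

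**Figure D5:**
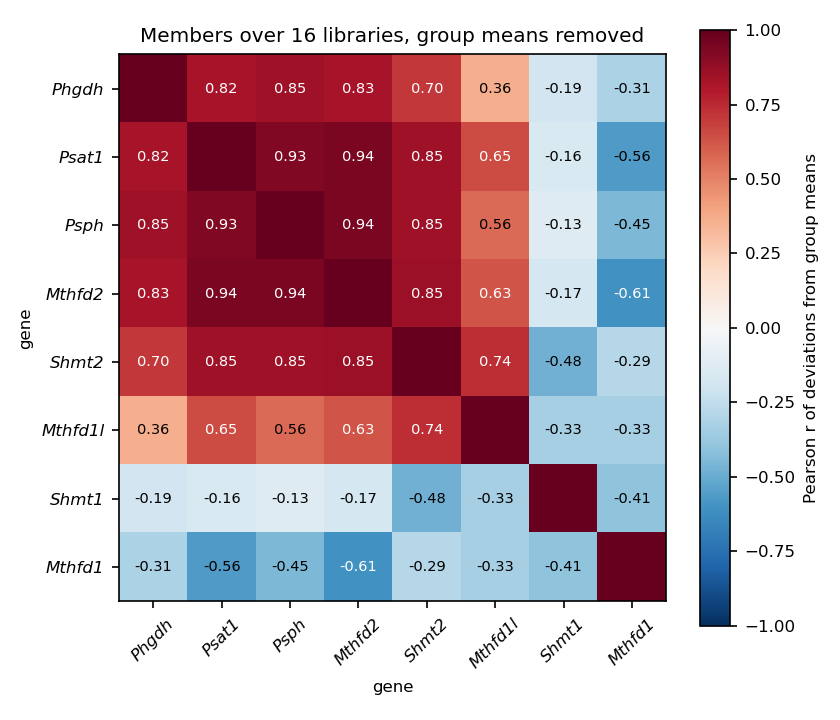
Pearson r between the 8 enzymes over 16 libraries, computed on log2 CPM after removing each group's mean (red positive, blue negative). Phgdh, Psat1, Psph, Mthfd2 and Shmt2 form a block from 0.70 to 0.94, and Mthfd1 and Shmt1 are negative with every other member.

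The genes most like each member over the 16 libraries, without removing group means, were read next among the 9377 of the 12444 genes averaging 50 or more UMIs whose symbol is not a gene model (Gm or Rik), pseudogene (-ps) or clone name. Psph was most like Asns, the asparagine synthetase (r 0.94), then Mthfd2 (0.93) and Cth, the cystathionine lyase (0.93). Mthfd2 was most like Psph (0.93), Trib3 (0.93) and the cationic amino acid transporter Slc7a3 (0.93). Psat1 was nearest to Stc2 (0.88), Ctsc (0.88) and the amino acid transporter Slc7a5 (0.85), and Phgdh to Psph (0.86), Stc2 (0.84) and Mthfd2 (0.84). The nearest genes of Mthfd1 were Hoxb6 (0.97), Ddb2 (0.96) and Brd3 (0.95), those of Shmt1 Hdac2 (0.89), Ywhah (0.86) and Prkag1 (0.85), and those of Shmt2 Mia3 (0.85), Parp9 (0.85) and P4ha1 (0.84). The nearest genes of Mthfd1l had r of 0.76 (Icmt), 0.74 (B4galt3) and 0.74 (Grk2).

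ATF4 and 10 of its known targets outside the members were read from a list. In N1-AcSpd CD34- cells 10 of these 11 genes had mice 1 and 3 above mice 2 and 4, in untreated CD34- cells 9, in N1-AcSpd CD34+ cells 5 and in untreated CD34+ cells 4. The summed list measured 749, 584, 703 and 622 CPM in the N1-AcSpd CD34- libraries of mice 1 to 4, with mice 1 and 3 above mice 2 and 4. In the N1-AcSpd CD34+ libraries it measured 727, 576, 648 and 687 CPM, where mouse 4 lay above mouse 3. Untreated sums were 720.4, 668, 708 and 651 CPM in CD34- and 699, 676, 682 and 703 CPM in CD34+ libraries, the latter again with mouse 4 above mouse 3. In the cell type effect of untreated cells 1 of the 11 was higher and 2 lower, against 16.1% of all genes each way. These were Slc3a2, the heavy chain of amino acid transporters, at 0.41 (adjusted p 0.00171), Atf4 itself at -0.20 (adjusted p 0.00956) and Chac1 at -0.41 (adjusted p 0.0467). The Atf4 call was lost without mouse 2 (adjusted p 0.0584) or mouse 3 (0.0702). Called genes on this list ran from 1 to 3 over the 20 fits without a library or mouse. With N1-AcSpd, averaged over both cell types, 0 of 11 were called, against 4.87% of all genes.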

How the data were processed

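Libraries were made by 3′ RNA sequencing with UMIs. Per the study's methods, the authors split reads by barcode with FLEXBAR, pseudo-aligned them to mm10 with Kallisto (0.45.0 in the submitters' processing notes), assigned tags with BEDTools and counted UMIs in R. The deposited values are these raw counts per gene. Empty cells (156050) were read as 0, and 94 identifiers had no symbol.

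The 19049 genes averaging 5 or more UMIs a library entered the quasi-likelihood test of edgeR 4.0.16 (under R 4.3.3, with TMM scaling, 1 fit of 16 libraries with 1 mean per group, Benjamini-Hochberg adjustment, two-sided), where the study used DESeq2 (here 1.42.0, as an alternative). SE is the log2 fold change over the square root of F. Intervals are 95%. Per library values are CPM on TMM-scaled totals, and correlations used a prior count of 2. The procedure was tested on simulated data.

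Replicate numbers stand for 1 mouse in every group. Deviations of same-mouse libraries from their group means had a mean r of 0.013 (-0.069 to 0.086, 24 pairs). Libraries of a group differed beyond sampling noise (chi-square per degree of freedom at least 25.2).

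Members and lists were chosen with earlier results of these data known. All members are named, with at most 4 genes of a list by smallest adjusted p, those of opposite direction, and Ndufa4l2, Cct6a and Smcr8 for their overlaps. Slc19a1, Sfxn2, Srr, Mtr, Mtrr, Gldc and Chac1 were named after their values were seen, as was the order of the mice, and the alternatives for lists, SD ratios and that order were chosen after seeing the data. Values of 1 list gene are not reported here.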

Additional observations from a re-analysis of the deposited data

Results flagged for a closer look

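Of 32 sets of 4 libraries (8 enzymes in 4 groups), 1 held a library that stood apart by Dixon's criterion, which chance alone meets in about 1 of 20 sets. Mthfd1 in N1-AcSpd CD34+ cells measured 8.96 CPM in mouse 3, against 11.4 to 11.8 CPM in the other mice, and still above the highest N1-AcSpd CD34- library at 8.38 CPM.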

How the results depend on the processing

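Mthfd1 was called higher in CD34+ cells in both conditions under all settings of scaling, filter, tool, block and left-out library tried, except a fold minimum. Members called in untreated cells numbered 1 with DESeq2 and 0 with a minimum of 0.5 on the log2 fold change. With only the compared groups in the edgeR fit, Psph was called there as well (adjusted p 0.0178), beside Mthfd1 and Shmt1. In N1-AcSpd cells the number was 1 without the low-count filter, 1 with only the compared groups and 0 with the fold minimum. The number ran from 1 to 2 in both conditions when a library or mouse was left out. The fold minimum left 2913 and 3197 genes of all in the cell type effects, 27 and 19 in the treatment effects of CD34- and CD34+ cells and 94 in their average. Without the filter, 35, 35 and 445 genes were called for these treatment effects, with DESeq2 558, 423 and 1585, and with only the compared groups 0 in CD34- and 3 in CD34+ cells. With mouse as a replicate block, the pairing being by animal, they were 351, 152 and 1551, and the block changed no member's call. DESeq2 called 72 genes for the interaction. Leave-one-out counts ran from 4 to 158 in CD34-, 3 to 73 in CD34+, 175 to 1062 for the average and 0 to 11 for the interaction. Other causes of these shifts were not tested. Library totals without the TMM factor moved the median of all genes to 0.14 in untreated and 0.11 in N1-AcSpd cells, gave Shmt1 an adjusted p of 0.00376 in the latter, and turned Phgdh there to 0.0072.

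Several uncalled differences near 0 changed sign when a library or mouse was left out. For the treatment in CD34- cells the ranges were -0.10 to 0.013 for Phgdh and -0.12 to 0.070 for Mthfd2. In CD34+ cells they were -0.020 to 0.050 for Phgdh, -0.20 to 0.025 for Psph, -0.022 to 0.081 for Shmt1, -0.051 to 0.088 for Mthfd1 and -0.18 to 0.022 for Mthfd2. For the average they were -0.047 to 0.025 (Phgdh), -0.0099 to 0.082 (Psat1), -0.022 to 0.069 (Shmt2), -0.051 to 0.0100 (Mthfd1), -0.10 to 0.0077 (Mthfd1l) and -0.12 to 0.036 (Mthfd2). For the interaction they were -0.0073 to 0.11 (Phgdh), -0.13 to 0.0037 (Shmt1), -0.047 to 0.16 (Mthfd1) and -0.16 to 0.047 (Mthfd2), and for the cell type effect under N1-AcSpd -0.045 to 0.19 (Mthfd1l). Of 1280 such values over all settings, 1213 kept direction and call. Mthfd1l had 68 to 159 UMIs a library, the fewest of the 8, though its SE in untreated cells (0.14) was close to that of Mthfd2 (0.15).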
